A study of Homo sapiens with 11 samples.

Results

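The genes described here are ATF4, PPP1R15A, DDIT4, HSPA5 and AARS, 5 genes of the integrated stress response and of the ER chaperone machinery, taken by symbol from the authors' table of genes that differed from control siRNA. They are 5 of the 8085 genes with values in that table. RNA was measured by sequencing in MDA-MB-231 cells, a breast cancer line from a metastatic pleural effusion, 48 h after transfection, in 11 libraries. Cells received an siRNA pool against BCL11A, a zinc finger transcriptional repressor (siBCL11A, 100 nM, n = 3), a pool against MBNL1, a splicing regulator (siMBNL1, 100 nM, n = 3), both pools together (siB/siM, 50 nM of each, n = 3), or non-targeting siRNA (siNS, 100 nM, n = 2). All libraries came from this 1 line, each pool holds several siRNAs against its target, and the labels do not say whether replicates were separate cultures. The p-values then measure only the spread between these libraries, which may be technical. In bulk RNA, fewer cells with a transcript and less transcript per cell cannot be told apart.

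The integrated stress response is a shared output of kinases that sense unfolded protein in the ER, amino acid shortage, double-stranded RNA or haem shortage and phosphorylate the translation initiation factor eIF2. General translation then slows, while the mRNA of the transcription factor ATF4 is translated better, and ATF4 switches on genes of amino acid uptake and synthesis, tRNA charging and redox control. PPP1R15A (GADD34) brings a phosphatase to eIF2 and so ends the response. DDIT4 (REDD1) restrains the growth kinase complex mTORC1 and is known to be induced by ATF4, hypoxia and glucocorticoids. HSPA5 (BiP) is the main Hsp70 chaperone of the ER and a standard target of the unfolded protein response through ATF6 and XBP1. AARS, now AARS1, is the cytosolic alanyl-tRNA synthetase, and its gene is a known ATF4 target.

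The promoter of PPP1R15A is shown because it holds, in capitals, a match to a motif bound by factors of the ATF and CREB family. The sequence is the RefSeq window of 250 bases upstream of the annotated start, on build GRCh38.p14, chr19:48872171-48872420 on the plus strand, written 5′ to 3′.
PPP1R15A: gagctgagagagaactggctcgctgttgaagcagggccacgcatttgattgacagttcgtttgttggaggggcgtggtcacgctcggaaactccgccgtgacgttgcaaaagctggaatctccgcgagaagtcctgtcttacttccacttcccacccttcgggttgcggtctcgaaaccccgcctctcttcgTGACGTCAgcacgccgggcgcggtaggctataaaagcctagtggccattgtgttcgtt
The capitals in PPP1R15A mark the palindromic cAMP response element TGACGTCA at −58 to −51, held by 1.77% of 27305 windows of the same length. The windows of ATF4 and DDIT4 do not hold it. The shorter TGACG, which is part of the full cAMP response element, lies in the windows of ATF4 and PPP1R15A and in 21.7% of all windows. Both strands were searched, and a match is a string of letters and not a measured binding site.

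Levels are in RPKM, reads scaled by transcript length and by library size, which allows genes of different length to be set side by side. Of the 5 genes, HSPA5 was in every group the highest of those with values there. It was at 132 ± 13.7 RPKM in siBCL11A, 120.2 ± 12.3 in siMBNL1, 137 ± 14.8 in siB/siM and 214 ± 21.9 in siNS (mean ± SD). The order below it differed between groups. In siBCL11A ATF4 stood second at 105 ± 3.35 RPKM, AARS at 51.3 ± 0.715 and PPP1R15A at 51.0 ± 2.38 overlapped, and DDIT4 was last at 40.0 ± 4.03. In siB/siM ATF4 was likewise second at 103 ± 2.00 RPKM, and PPP1R15A at 46.8 ± 2.65 overlapped DDIT4 at 45.1 ± 2.94. In siMBNL1, where 3 of the genes have values, ATF4 at 67.4 ± 1.75 RPKM lay above DDIT4 at 59.5 ± 0.887 with no overlap. In siNS the order was DDIT4 at 74.6 ± 5.18 RPKM, ATF4 at 55.2 ± 1.56, AARS at 43.3 ± 1.02 and PPP1R15A at 25.1 ± 0.758, and the libraries of neighbours in this order did not overlap.

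**Figure D1:**
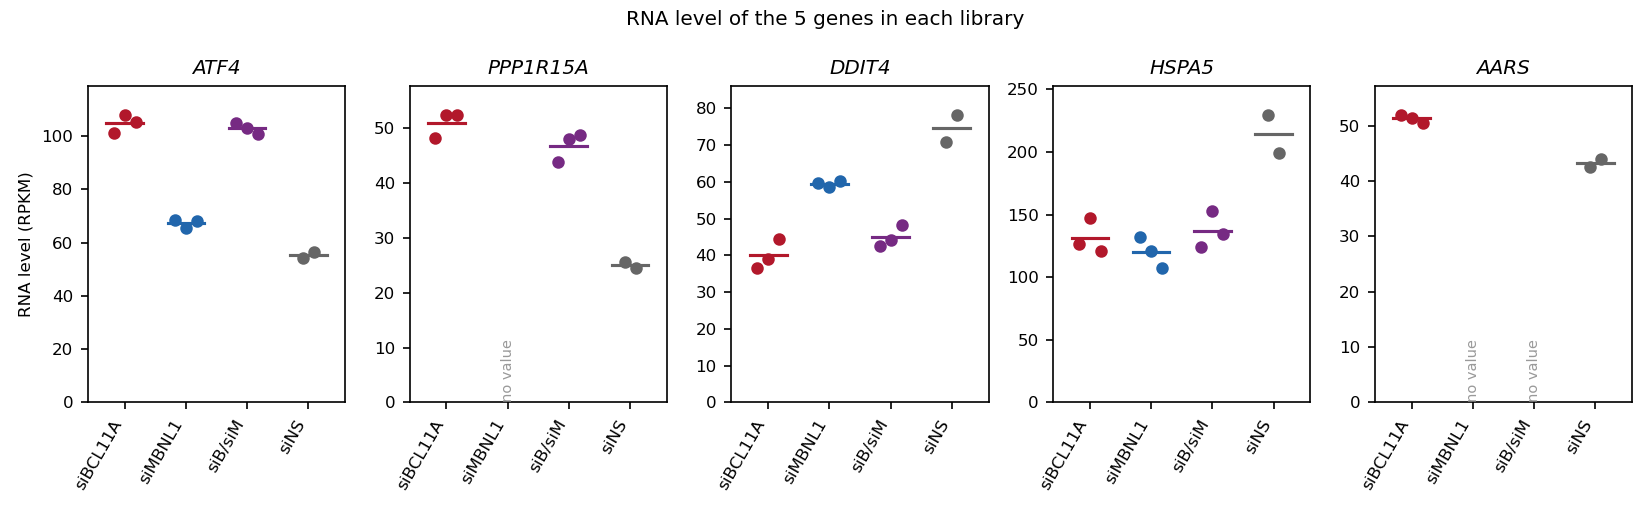
RNA level in RPKM (y axes, from 0, a separate scale for each gene) in each library, by group on the x axis, with points for libraries and bars for group means. ATF4 and PPP1R15A are high in siBCL11A and siB/siM, DDIT4 is low there and in between in siMBNL1, and HSPA5 is lower in all 3 knockdowns than in siNS. A gene marked as having no value is not listed in that block of the table.

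A block holds values only for genes that differed from siNS in the authors' test, so a call against siNS follows largely from the listing. A change is the mean log2(RPKM + 1) of the first group minus that of the second, with its SE, tested with limma. Adjusted p-values are Benjamini-Hochberg values for the genes with values, with the number of tests set at 23227. This is more than the genes with values in any comparison, and adjusting over those genes alone gave more calls between knockdowns, as listed at the end. All 5 genes passed at an adjusted p under 0.05 in siBCL11A against siNS, where 89.2% of 5360 listed genes passed. The 3 genes with values in siMBNL1 passed, where 94.3% of listed genes passed, and the 4 with values in siB/siM passed, where 86.9% of listed genes passed. The libraries of knockdown and siNS overlapped for none of these values, as for 97.7% of listed genes in siBCL11A, 99.7% in siMBNL1 and 99.6% in siB/siM. The direct comparisons between knockdowns are not fixed by the listing in this way. Of the genes with values in both groups, 18.9% passed in siBCL11A against siMBNL1, 11.6% in siB/siM against siMBNL1 and 2.04% in siB/siM against siBCL11A. The last share was 92 of 4511 genes, and 39 genes when replicate number was a block and only those groups were in the fit. Libraries of the groups compared did not overlap for 44.5%, 38.7% and 34.1% of genes, in the same order. Of the 5 genes, ATF4 and DDIT4 passed in the first and in the second of these comparisons, out of 3 with values. In the third, 0 of 4 passed in limma, and 1 of 4, DDIT4, had an unadjusted p under 0.05 (0.0413), as had 1173 of all 4511 genes.

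ATF4, the transcription factor at the centre of the response, was close to 1.9 times its control level after BCL11A siRNA, alone or in the combination, and was raised less by MBNL1 siRNA. Its level was 101, 108 and 105 RPKM in siBCL11A libraries, 68.4, 65.3 and 68.3 RPKM in siMBNL1 libraries and 105, 103 and 101 RPKM in siB/siM libraries, against 54.1 and 56.3 RPKM in siNS libraries. Every knockdown library lay above both siNS libraries, and the siBCL11A and siB/siM libraries overlapped each other and lay above all siMBNL1 libraries. Of all genes, 44.5% likewise had no overlap between siBCL11A and siMBNL1, and 38.7% between siB/siM and siMBNL1. The change of ATF4 against siNS was 0.91 ± 0.05 in siBCL11A (adjusted p = 2.36e-07), 0.28 ± 0.05 in siMBNL1 (adjusted p = 0.00231) and 0.89 ± 0.05 in siB/siM (adjusted p = 3.22e-07). As ratios of mean RPKM these are 1.90, 1.22 and 1.86. Among listed genes ATF4 had the 148th highest change of 5360 in siBCL11A, the 246th of 6700 in siB/siM and the 1897th of 4690 in siMBNL1. In the authors' deposited table, where the sign is siNS over knockdown, its log2 values are −0.88, −0.29 and −0.90.

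Set directly against siMBNL1, ATF4 was higher in siBCL11A by 0.63 ± 0.05 (adjusted p = 1.17e-05) and higher in siB/siM by 0.60 ± 0.05 (adjusted p = 3.59e-05). These were the 39th highest of 3376 and the 35th highest of 3927 changes. No difference was detected between siB/siM and siBCL11A for ATF4, at −0.03 with a 95% interval of −0.13 to 0.08, where the combination held 50 nM of the BCL11A pool and the single pool was at 100 nM. Against the mean of the single knockdowns ATF4 was higher in siB/siM by 0.29 ± 0.04 (adjusted p = 0.0222), in a comparison where 1.78% of genes passed. Leaving out siBCL11A library 2 or 3, siMBNL1 library 1 or any siB/siM library ended that call, as did quantile normalization (0.15, adjusted p = 0.171). Over all alternatives its adjusted p ran between 0.00273 and 0.1801.

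PPP1R15A, the phosphatase subunit that closes the response, was raised like ATF4 in siBCL11A and siB/siM, the knockdowns whose blocks list it. It was at 48.3, 52.3 and 52.4 RPKM in siBCL11A libraries and 43.8, 47.9 and 48.7 RPKM in siB/siM libraries, against 25.7 and 24.6 RPKM in siNS libraries. The lowest knockdown library was well above both siNS libraries, and siBCL11A and siB/siM overlapped. The change was 0.99 ± 0.07 in siBCL11A (adjusted p = 3.46e-06) and 0.87 ± 0.07 in siB/siM (adjusted p = 7.87e-06), and the authors' deposited list of genes over 2-fold higher in siBCL11A holds PPP1R15A with a ratio of 2.03. The difference of siB/siM from siBCL11A was −0.12, with an interval of −0.26 to 0.02, and did not pass (adjusted p = 1). That fit does not pair libraries, and at each replicate number PPP1R15A was lower in siB/siM than in siBCL11A. No alternative limma fit passed, including those with a replicate block (lowest adjusted p = 0.252). PPP1R15A has no value in the siMBNL1 block, where ATF4 was called higher. Whether it follows ATF4 there could not be seen, since a block lists only genes that passed the authors' test.

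AARS, the alanyl-tRNA synthetase, was slightly higher after BCL11A siRNA. It was at 52.0, 51.4 and 50.6 RPKM in siBCL11A libraries, against 42.6 and 44.0 RPKM in siNS libraries, and has no value in the other blocks. The groups did not overlap, and the change of 0.24 ± 0.06 was near the threshold (adjusted p = 0.0218). The call was lost with quantile normalization (adjusted p = 0.0935), with a replicate block (0.0669), without siNS library 1 (0.166) or 2 (0.0817) and without siBCL11A library 1 (0.0637) or 2 (0.0688). Over all alternatives the adjusted p lay between 0.00503 and 0.166, with the change between 0.17 and 0.29.

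DDIT4, the mTORC1 inhibitor, went the other way from ATF4. It was at 36.5, 39.1 and 44.4 RPKM in siBCL11A libraries, 59.8, 58.5 and 60.2 RPKM in siMBNL1 libraries and 42.6, 44.2 and 48.3 RPKM in siB/siM libraries, against 71.0 and 78.3 RPKM in siNS libraries. All knockdown libraries lay below both siNS libraries, siBCL11A and siB/siM overlapped, and siMBNL1 stood between them and siNS. Of all genes, 44.5% and 38.7% likewise had no overlap of siMBNL1 with siBCL11A and with siB/siM. The change of DDIT4 against siNS was −0.89 ± 0.08 in siBCL11A (adjusted p = 7.99e-06), −0.32 ± 0.08 in siMBNL1 (adjusted p = 0.0151) and −0.72 ± 0.08 in siB/siM (adjusted p = 3.98e-05). Without siNS library 2 the siMBNL1 change was −0.25 and no longer passed (adjusted p = 0.198, the highest of its alternatives, the lowest being 0.00305).

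Between knockdowns, DDIT4 was lower in siBCL11A than in siMBNL1 by −0.57 ± 0.07 (adjusted p = 0.000792) and lower in siB/siM than in siMBNL1 by −0.40 ± 0.07 (adjusted p = 0.0158). The first held in every alternative, while the second was lost without siMBNL1 library 1 (adjusted p = 0.0607) or 3 (0.0546) and without siB/siM library 1 (0.0775) or 2 (0.0723), in a range of 0.00153 to 0.0775. The difference of siB/siM from siBCL11A, 0.17 with an interval of 0.01 to 0.33, did not pass after adjustment (adjusted p = 0.881). At each replicate number DDIT4 was higher in siB/siM than in siBCL11A, while for ATF4 and HSPA5 the direction differed between numbers. No alternative limma fit passed for DDIT4 here, including those with a replicate block (lowest adjusted p = 0.171).

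HSPA5, the ER chaperone BiP, was lower in all 3 knockdowns, and the knockdowns were not told apart. It was at 127, 147 and 121 RPKM in siBCL11A libraries, 132, 121 and 108 RPKM in siMBNL1 libraries and 124, 153 and 135 RPKM in siB/siM libraries, against 229.7 and 199 RPKM in siNS libraries. The highest knockdown library, at 153 RPKM, was below the lower siNS library, and the 3 knockdown groups overlapped each other. The change was −0.70 ± 0.11 in siBCL11A (adjusted p = 0.000558), −0.83 ± 0.11 in siMBNL1 (adjusted p = 0.000215) and −0.64 ± 0.11 in siB/siM (adjusted p = 0.00107). Among listed genes this was the 664th lowest change of 5360 in siBCL11A, the 248th of 4690 in siMBNL1 and the 674th of 6700 in siB/siM. Differences between knockdowns were 0.13 for siBCL11A against siMBNL1 (interval −0.09 to 0.35), 0.19 for siB/siM against siMBNL1 (−0.03 to 0.41) and 0.06 for siB/siM against siBCL11A (−0.16 to 0.28), each with an adjusted p of 1. These intervals leave room for differences of up to 0.41 in log2.

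**Figure D2:**
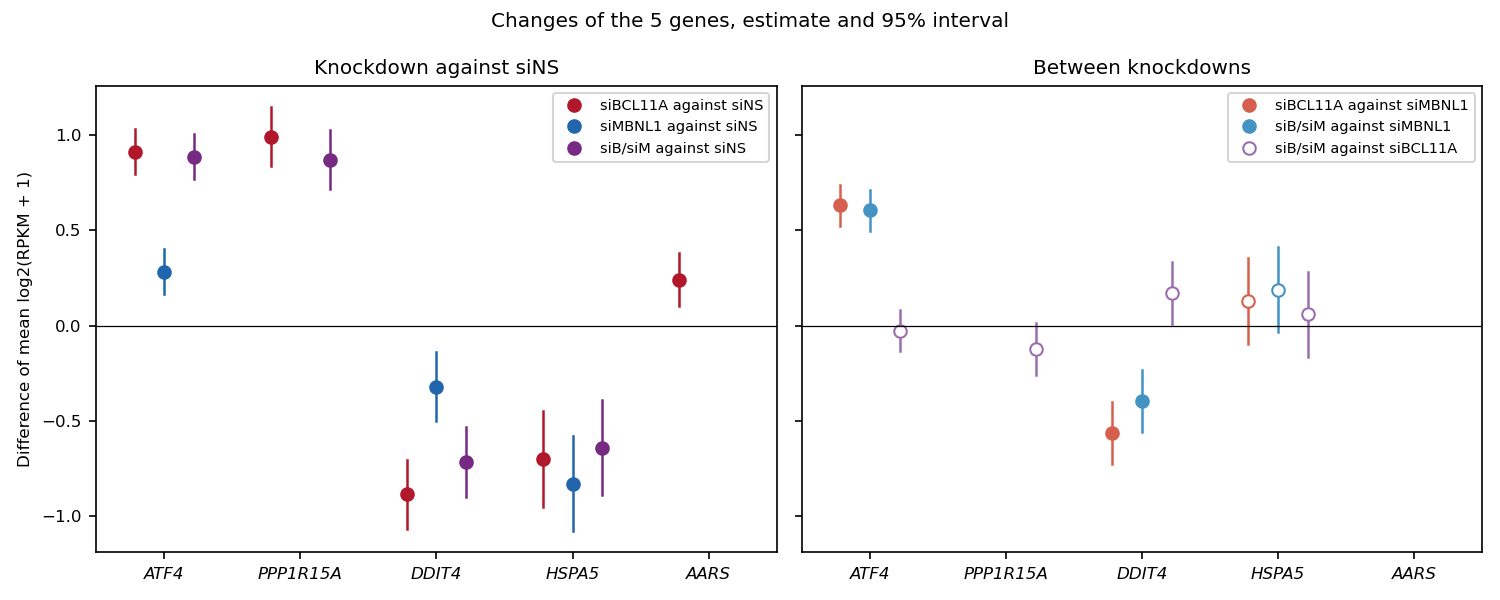
Difference of mean log2(RPKM + 1) (y axis) for each gene (x axis), with points for the estimate and lines for the 95% interval, knockdowns against siNS on the left and between knockdowns on the right. Filled points passed at an adjusted p under 0.05. ATF4 and DDIT4 separate siMBNL1 from the other knockdowns, and the 3 HSPA5 values between knockdowns are open points with intervals that cross 0.

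Between libraries of a group, HSPA5 was also the least even of those of the 5 genes with values there. Its coefficient of variation was 10.4% in siBCL11A, 10.2% in siMBNL1, 10.8% in siB/siM and 10.2% in siNS, against medians over all genes of 5.44%, 7.41%, 5.41% and 4.35% in the same groups. Of all genes, 79.9%, 69.4%, 83.8% and 82.7% varied less than HSPA5. DDIT4 was close to HSPA5 in siBCL11A at 10.1%, and varied by 1.49%, 6.53% and 6.93% in the other groups. ATF4 varied by 3.19%, 2.59%, 1.94% and 2.83%. In the 5 libraries whose depth could be worked out, HSPA5 rested on about 17100 to 23600 reads, which alone would give a variation under 1%, and ATF4 on about 1440 to 4870 reads.

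Ratios between these genes within a library do not depend on how libraries are scaled to each other. ATF4 over DDIT4 was 2.78, 2.76 and 2.37 in siBCL11A libraries, 1.14, 1.12 and 1.13 in siMBNL1 libraries and 2.46, 2.33 and 2.09 in siB/siM libraries, against 0.762 and 0.719 in siNS libraries. The siBCL11A and siB/siM libraries overlapped, siMBNL1 stood apart from them and from siNS, and siNS was the only group where DDIT4 exceeded ATF4. PPP1R15A over ATF4 hardly moved, at 0.486 ± 0.0111 in siBCL11A and 0.455 ± 0.0338 in siB/siM, against 0.456 ± 0.0266 in siNS. This ratio is not known in siMBNL1, where PPP1R15A has no value. DDIT4 over HSPA5 was 0.452, 0.485 and 0.560 in siMBNL1 libraries, against 0.309 and 0.394 in siNS libraries, and was 0.307 ± 0.0531 in siBCL11A and 0.331 ± 0.037 in siB/siM, where the libraries overlapped siNS. With 3 libraries against 2 an exact permutation test cannot reach 0.05, so these ratios are descriptions.

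**Figure D3:**
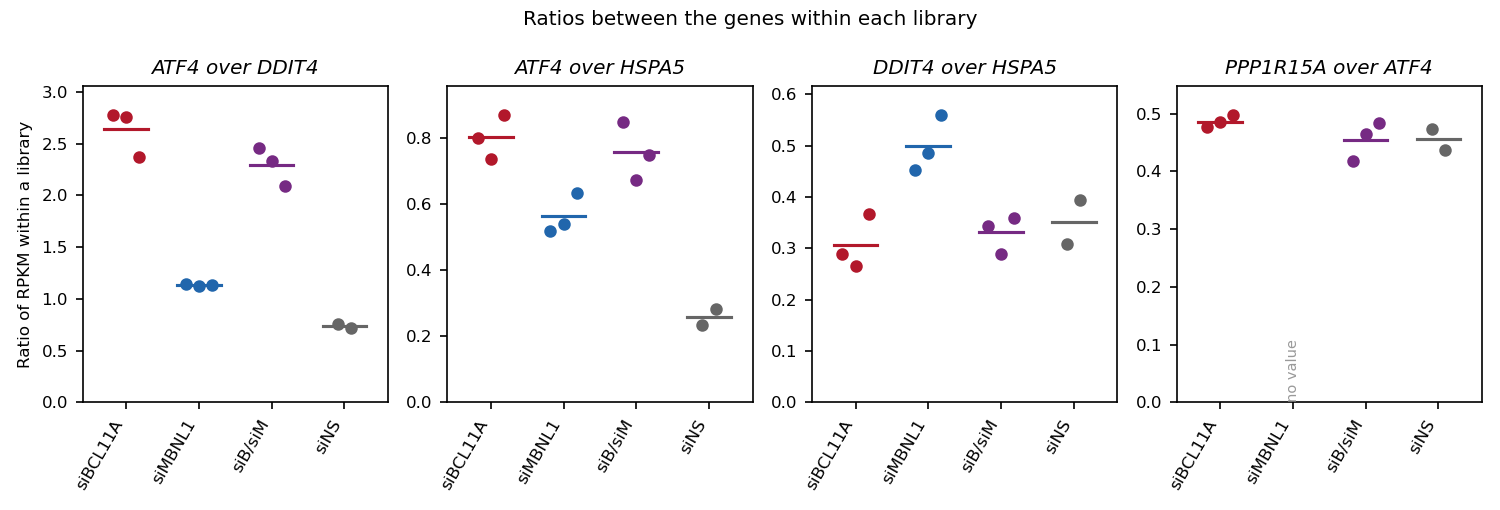
Ratio of 2 genes' RPKM within each library (y axes, from 0), by group on the x axis, with points for libraries and bars for group means. ATF4 over DDIT4 lies above 2 in every siBCL11A and siB/siM library and stays near 1.13 in siMBNL1, while PPP1R15A over ATF4 lies between 0.418 and 0.498 in every library with values.

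Among listed genes of eIF2, its kinases and proteins that act on either, such as phosphatase subunits, more were called higher than lower. Of 21 genes of this group, 12, 5 and 15 have values in siBCL11A, siMBNL1 and siB/siM, of which 7, 4 and 9 were called higher and 3, 1 and 2 lower, while 42.3%, 45.2% and 51.3% of all listed genes were called higher and 46.9%, 49.1% and 35.5% lower. Their median change was 0.31, 0.35 and 0.23, beside medians over all listed genes of −0.22, −0.25 and 0.24, so that in siB/siM the group stood near all listed genes. EIF2AK3, the ER-resident kinase PERK, was at 6.24 ± 0.307 RPKM in siBCL11A, 7.31 ± 0.377 in siMBNL1 and 7.36 ± 0.304 in siB/siM, against 3.53 ± 0.474 in siNS, changes of 0.68, 0.88 and 0.89. EIF2S3, the gamma subunit of eIF2, changed by 0.68, 0.55 and 0.74 in the same order, and IMPACT, an inhibitor of the amino acid sensor GCN2, by 0.37, 0.35 and 0.47, with its call lost in 2 alternatives in siBCL11A and 5 in siMBNL1. EIF2S1, the alpha subunit that carries the regulatory phosphorylation, rose by 0.37, 0.32 and 0.42, and EIF2S2, the beta subunit, by 0.38 in siBCL11A and 0.39 in siB/siM. EIF2AK1, the haem-regulated kinase, changed by −0.47 in siMBNL1 and −0.28 in siB/siM. With quantile normalization 5 rather than 9 genes of the group were called higher in siB/siM. The 3 called lower in siBCL11A became 1 when either siNS library was left out, and likewise for siBCL11A library 1 or 2. These 3 were DNAJC3, PPP1CA and PPP1CB, which are neither kinases nor eIF2 subunits.

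Most listed ATF4 targets were called higher with BCL11A siRNA, alone or in the combination, while in siMBNL1 the balance of calls depended on single libraries. Of 34 target genes, 17, 10 and 21 have values in siBCL11A, siMBNL1 and siB/siM. In siBCL11A 12 were called higher and 4 lower, in siMBNL1 3 higher and 7 lower, and in siB/siM 17 higher and 4 lower. Of all listed genes, 42.3%, 45.2% and 51.3% were called higher and 46.9%, 49.1% and 35.5% lower, in the same order. The 7 called lower in siMBNL1 became 3 without siNS library 1 or 2 and 4 without siMBNL1 library 1, and the 4 called lower in siBCL11A became 2 without siNS library 1. The median change of the targets was 0.44, −0.38 and 0.38, beside −0.22, −0.25 and 0.24 over all listed genes. The difference between these counts was not tested, since the blocks list different genes. Set directly against each other the knockdowns gave no called target, with an adjustment that counts 23227 tests, more than the genes with values. In limma 0 of 6 targets passed in siBCL11A against siMBNL1, where 18.9% of all genes passed. In siB/siM against siBCL11A 0 of 16 passed, where 2.04% of all genes passed. In siB/siM against siMBNL1 0 of 6 passed, where 11.6% of all genes passed. At an unadjusted p under 0.05 there were 1, 5 and 2 targets, beside 1503 of 3376, 1173 of 4511 and 1496 of 3927 genes of any kind. The lowest adjusted p among the targets was 0.0515, for asparagine synthetase (ASNS) in siB/siM against siBCL11A, with a change of −0.32.

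Several targets rose in more than 1 knockdown. MTHFD2, a mitochondrial folate enzyme, was at 38.2 ± 1.05 RPKM in siBCL11A, 36.5 ± 0.940 in siMBNL1 and 41.0 ± 3.53 in siB/siM, against 23.4 ± 0.0624 in siNS, changes of 0.68, 0.62 and 0.78. TNFRSF10B, the death receptor DR5, changed by 0.67, 0.53 and 0.64. SLC7A1, a cationic amino acid transporter, rose by 0.65 in siBCL11A and 0.40 in siB/siM, and SLC3A2, the heavy chain of amino acid exchangers, by 0.48 and 0.70. DDIT3, the transcription factor CHOP, was at 21.0 ± 0.724 RPKM in siB/siM, against 13.03 ± 0.424 RPKM in siNS, a change of 0.65 ± 0.06 (adjusted p = 2.63e-05), and rose by 0.56 in siBCL11A. Asparagine synthetase, ASNS, chosen after its values were seen, was at 44.5 ± 0.858 RPKM in siBCL11A and 35.6 ± 1.80 in siB/siM, against 28.9 ± 0.945 RPKM in siNS, changes of 0.61 and 0.29. The siB/siM call of ASNS was lost with quantile normalization (0.13, adjusted p = 0.245) and without siNS library 1 (adjusted p = 0.0612).

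Other targets fell. VLDLR, a lipoprotein receptor, changed by −0.65, −0.64 and −0.58 in siBCL11A, siMBNL1 and siB/siM. In siMBNL1 NUPR1, a stress-induced nuclear protein, was at 1.116 ± 0.240 RPKM, against 3.04 ± 0.261 RPKM in siNS, and CTH, an enzyme of cysteine synthesis, at 4.29 ± 0.842 RPKM, against 6.99 ± 0.014 RPKM in siNS (−0.94 and −0.61). The call of CTH was lost without siNS library 1 (adjusted p = 0.0639) or 2 (0.0630). GDF15, a stress cytokine, and SLC7A11, the cystine importer, were both chosen after their values were seen. SLC7A11 changed by −0.60 in siBCL11A and −0.57 in siB/siM. GDF15 changed by −0.57 in siBCL11A, −0.58 in siMBNL1 and −0.36 in siB/siM, and without siNS library 1 its call was lost in all 3 (adjusted p = 0.0583, 0.0615 and 0.4296), as it was in 5 other alternatives in siB/siM. SLC38A2, an amino acid transporter also chosen after its values were seen, was at 41.5 ± 1.02 RPKM in siBCL11A, 39.9 ± 5.95 in siMBNL1 and 37.4 ± 2.93 in siB/siM, against 51.1 ± 0.0341 in siNS. Its change was −0.29 in siBCL11A and did not pass (adjusted p = 0.0677), −0.36 in siMBNL1, where 5 alternatives ended the call, and −0.44 in siB/siM. SLC38A2 was the only gene of the 6 pathway lists among the authors' cassette exons, with inclusion of 0.736 in siBCL11A and 0.755 in siMBNL1, against 0.859 in siNS, 1 value per group with no spread. None of the 107, 110 and 146 exons listed for siBCL11A, siMBNL1 and siB/siM is in ATF4, PPP1R15A, DDIT4, HSPA5 or AARS.

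Most of the other listed cytosolic tRNA synthetases and their scaffold proteins were called higher, as AARS was in siBCL11A. Of 22 such genes, 14, 7 and 17 have values in siBCL11A, siMBNL1 and siB/siM, of which 13, 5 and 15 were called higher and 1, 2 and 2 lower, beside the 42.3%, 45.2% and 51.3% of all listed genes called higher. The median change was 0.36, 0.26 and 0.31, beside −0.22, −0.25 and 0.24 over all listed genes, the last being near the synthetases' own. HARS, for histidine, was at 42.3 ± 0.982 RPKM in siBCL11A, 41.0 ± 1.25 in siMBNL1 and 43.6 ± 1.28 in siB/siM, against 31.2 ± 0.455 in siNS, changes of 0.43, 0.39 and 0.47. AIMP1, a scaffold of the multisynthetase complex, changed by 0.51, 0.26 and 0.50, and EPRS, for glutamate and proline, by 0.36, 0.27 and 0.30, with the siB/siM call of EPRS lost with quantile normalization (0.096). YARS, for tyrosine, changed by 0.41 in siBCL11A and 0.25 in siB/siM, where 4 alternatives ended the call. CARS, for cysteine, was lower, by −0.20, −0.49 and −0.36, with the call in siBCL11A lost in 10 alternatives. With quantile normalization 6 rather than 15 were called higher in siB/siM, and 9 without siNS library 1, while the 2 called lower in siMBNL1 became 1 without siNS library 1 or 2, and those in siB/siM 1 without siNS library 2.

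Among listed ER chaperones and other genes of the unfolded protein response, more were called lower than higher, as HSPA5 was. Of 35 such genes, 20, 6 and 15 have values in siBCL11A, siMBNL1 and siB/siM, of which 13, 5 and 9 were called lower and 2, 1 and 2 higher, while 46.9%, 49.1% and 35.5% of all listed genes were called lower. The median change was −0.29, −0.48 and −0.26, beside −0.22, −0.25 and 0.24 over all listed genes. CALR, the lectin chaperone calreticulin, was at 722 ± 18.8 RPKM in siBCL11A, 769 ± 30.8 in siMBNL1 and 766 ± 34.6 in siB/siM, against 1061 ± 12.1 in siNS, changes of −0.55, −0.46 and −0.47, although with quantile normalization the siBCL11A change was −0.054 and the siMBNL1 change 0.051, and neither passed. EDEM1, which hands misfolded glycoproteins to degradation, changed by −0.51, −0.49 and −0.61, and WFS1, an ER membrane protein, by −0.75, −0.52 and −0.41, with the siB/siM call lost without siNS library 2 (adjusted p = 0.0596). DNAJB11, a cochaperone of HSPA5, changed by −0.53 in siBCL11A, and SYVN1, the ubiquitin ligase of ER-associated degradation, by −0.85 in siMBNL1 and −0.39 in siB/siM, where the call was lost without siNS library 1 (adjusted p = 0.119). In siBCL11A SYVN1 changed by −0.27, which did not pass (adjusted p = 0.0632). MANF, a secreted ER stress protein, went against the others, at 68.2 ± 2.26 RPKM in siBCL11A, 82.6 ± 4.96 in siMBNL1 and 85.9 ± 2.65 in siB/siM, against 54.0 ± 1.24 in siNS, and XBP1, a transcription factor of the response chosen after its values were seen, was higher by 0.36 in siBCL11A and 0.29 in siB/siM. The siB/siM call of XBP1 was lost with quantile normalization (0.14, adjusted p = 0.177) and without siNS library 1 (0.0979). Without siNS library 2, 5 rather than 9 genes were called lower in siB/siM.

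Among listed chaperones of the cytosol and mitochondria, more were called higher than lower. Of 21 genes, 9, 10 and 15 have values, of which 7, 6 and 10 were called higher and 2, 2 and 2 lower in siBCL11A, siMBNL1 and siB/siM, beside the 42.3%, 45.2% and 51.3% of all listed genes called higher. Of all listed genes 46.9%, 49.1% and 35.5% were called lower, so that in siB/siM they leaned the same way as these chaperones. The median change of the chaperones was 0.39, 0.27 and 0.33, beside −0.22, −0.25 and 0.24 over all listed genes. After quantile normalization 5 rather than 10 chaperones were called higher in siB/siM. HSPA4L, an Hsp110 family member, changed by 0.89, 0.80 and 0.98, and HSPD1, the mitochondrial Hsp60, by 0.49, 0.52 and 0.55. HSPD1 was at 258 ± 5.71 RPKM in siBCL11A, 264 ± 15.9 in siMBNL1 and 269.6 ± 9.73 in siB/siM, against 184 ± 3.25 in siNS. HSF1, the heat shock transcription factor, was higher by 0.34 in siBCL11A, a call lost without siNS library 1 (adjusted p = 0.0787) or 2 (0.0621), and by 0.54 in siB/siM. HSPB8, a small heat shock protein, was lower in all 3, by −0.76, −0.50 and −0.60, DNAJA2, an Hsp70 cochaperone, by −1.01 in siBCL11A and −0.40 in siB/siM, and BAG3, an Hsp70 exchange factor, by −0.54 in siMBNL1. In siB/siM BAG3 changed by −0.18, which did not pass (adjusted p = 0.0897).

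Around DDIT4, the mTORC1 pathway was mixed. Of 21 genes, 11, 7 and 10 have values, of which 4, 2 and 4 were called higher and 6, 5 and 5 lower in siBCL11A, siMBNL1 and siB/siM, beside 42.3%, 45.2% and 51.3% of all listed genes called higher and 46.9%, 49.1% and 35.5% lower. The 5 called lower in siMBNL1 became 3 without siNS library 1 or 2, with quantile normalization or with a filter of 5 RPKM. In siB/siM the 5 called lower became 2 without siNS library 1, and the 4 called higher became 2 with quantile normalization. MTOR, the kinase itself, was at 12.4 ± 0.574 RPKM in siBCL11A and 15.4 ± 0.290 in siB/siM, against 22.8 ± 0.842 in siNS, changes of −0.83 and −0.53, and has no value in siMBNL1. RRAGD, a Rag GTPase of amino acid sensing, changed by 0.63, 0.44 and 0.67 in the 3 knockdowns, while RRAGA, another Rag GTPase, changed by −0.27, −0.45 and −0.35, with the siBCL11A call lost in 5 alternatives. TSC2, the mTORC1 inhibitor on which DDIT4 acts, changed by −0.47, −0.41 and −0.37, with the siB/siM call lost without siNS library 1 (adjusted p = 0.0554). TXNIP, a glucose-responsive gene, was higher in all 3, by 0.42, 0.33 and 0.43. ULK1, the autophagy kinase, changed by −0.53 in siBCL11A, a call lost without siNS library 1 (adjusted p = 0.0867), and by −0.40 in siMBNL1, where 8 alternatives ended the call, and in siB/siM its change of −0.30 did not pass (adjusted p = 0.126). RRAGC was higher by 0.48 in siBCL11A, but by 0.30 without siNS library 2, where the call was lost (adjusted p = 0.0662), and by 0.32 in siB/siM, where 8 alternatives ended the call.

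**Figure D4:**
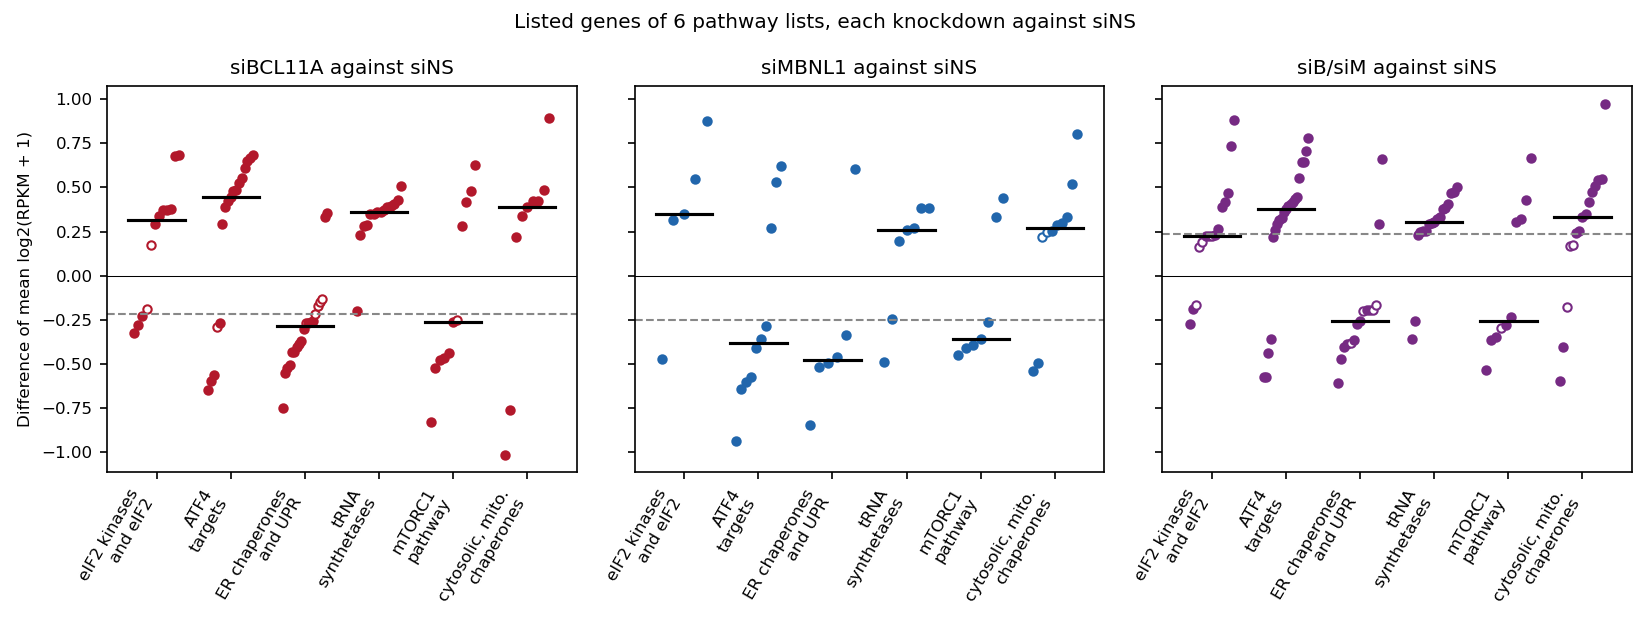
Difference of mean log2(RPKM + 1) against siNS (y axis) for each listed gene of 6 pathway lists (x axis), in siBCL11A, siMBNL1 and siB/siM. Filled points passed at an adjusted p under 0.05, black bars are list medians and the dashed line is the median of all listed genes. Median bars of ATF4 targets lie at 0.44 in siBCL11A, −0.38 in siMBNL1 and 0.38 in siB/siM, and those of ER chaperones at −0.29, −0.48 and −0.26. The gap around 0 reflects that only genes past the authors' test have values.

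The genes whose pattern over libraries was most like ATF4, PPP1R15A, DDIT4 and HSPA5 were named by Pearson's r of log2(RPKM + 1), as a description over libraries that share groups and the same siNS samples. For ATF4 over 11 libraries they were SETD8 (r = 0.99), ITPRIPL2 (0.99) and PPME1 (0.99), where the median r over 2257 genes was 0.44. For PPP1R15A over 8 libraries they were FADS3, XPO6 and CAD, each with r of 0.995 or more, beside a median of 0.82. For DDIT4 they were PTPRU (0.99), MT2A (0.99) and HTRA1 (0.98), and for HSPA5 they were TRUB2 (0.98), NFIX (0.97) and TMEM127 (0.97), over 11 libraries each. Among the 5 genes themselves r was 0.98 between ATF4 and PPP1R15A over 8 libraries, −0.95 between ATF4 and DDIT4 and −0.49 between ATF4 and HSPA5 over 11 libraries each. The 8 libraries leave out siMBNL1, where PPP1R15A has no value.

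The targeted gene MBNL1 was at 27.7, 27.5 and 27.6 RPKM in siBCL11A libraries, 3.17, 3.52 and 2.55 RPKM in siMBNL1 libraries and 3.53, 3.65 and 3.56 RPKM in siB/siM libraries, against 10.2 and 9.77 RPKM in siNS libraries. BCL11A itself has no value under that symbol in any block. A block lists only genes that passed the authors' test, so BCL11A either did not pass or was not counted under that symbol. The knockdown of BCL11A could therefore not be checked, and siBCL11A and siB/siM are taken by their labels. Markers of the labelled line, VIM, CD44, KRT18 and KRT19, summed to between 1760 and 1860 RPKM in every library, without CD44 in siMBNL1, where it has no value. Within that sum KRT19 was at 172 ± 12.8 RPKM in siBCL11A, 254 ± 12.7 in siMBNL1 and 213 ± 2.73 in siB/siM, against 397 ± 18.4 in siNS, changes of −1.21, −0.64 and −0.90 that passed. VIM and KRT18 were called higher in all 3 knockdowns, by 0.23, 0.37 and 0.23 and by 0.31, 0.25 and 0.29. Without siNS library 1 the calls of VIM in siBCL11A and siB/siM and of KRT18 in siMBNL1 were lost, and with quantile normalization those in siB/siM were, where VIM turned to −0.0090. Of 5 markers expected to be low, EPCAM was at 4.94 ± 0.115 RPKM in siBCL11A and 6.28 ± 0.667 in siB/siM, against 8.93 ± 0.950 in siNS, and ERBB2 at 13.9 ± 0.941 RPKM in siMBNL1 and 18.8 ± 0.742 in siB/siM, against 16.4 ± 0.318 in siNS, and the others have no value. Of 4 immune markers CD14, CD68 and CSF1R have values, and their sum was 27.8 to 31.5 RPKM in siBCL11A, 33.3 to 38.8 in siMBNL1 and 26.7 to 28.3 in siB/siM, against 60.6 to 62.4 in siNS, most of it CD68. The fibroblast markers PDGFRB and COL1A1, 2 of 4, summed to 0.946 to 1.39, 1.55 to 1.68 and 1.36 to 1.56 RPKM in these knockdowns, against 4.61 to 5.28 RPKM in siNS, and the endothelial marker KDR, 1 of 4, was at 0.353 ± 0.0901 RPKM in siBCL11A and 0.398 ± 0.0520 in siB/siM, against 1.19 ± 0.00611 in siNS, with no value in siMBNL1. The pan-leukocyte marker PTPRC has no value. These sums were lower in the knockdowns, as DDIT4 and HSPA5 were, and their part in the results was not tested.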

How the data were processed

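Groups were taken from sample titles. Per the labels' protocols, RNA was isolated with RNeasy Plus at 48 h, ribosomal RNA was removed (Ribo-Zero Gold) and stranded total RNA libraries were made. Reads were placed on hg19, per the submitters' processing notes, while the sources used here name no aligner or counter. The authors deposited RPKM values per library in a block for each comparison with siNS, with 5360 (siBCL11A), 4690 (siMBNL1) and 6700 (siB/siM) genes, and siNS values were the same in each block. Beside them the authors deposited log2 fold changes (siNS over knockdown), mean log2 CPM, and p-values with adjusted p-values, none above 0.05. The ratio in the deposited lists for siBCL11A is of mean RPKM. The deposited exon inclusion values are fractions, 1 per group.

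Here, limma 3.58.1 (R 4.3.3) was run on log2(RPKM + 1), with pseudocount 1, 1 mean per group and the spread shared by all 4 groups, with each gene fitted on the groups it has. All 8085 genes had a mean of at least 1 RPKM in some group. The plan named this model for RPKM, and Benjamini-Hochberg adjustment counted 23227 genes, as the authors' own adjusted p-values imply. Calls required an adjusted p under 0.05. The script was tested on simulated data.

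The 5 genes and the pathway and marker lists were chosen with earlier results of these data known. Named pathway genes are up to 4 per list and comparison with siNS, with the largest called change and no overlap, and 3 most alike genes per member with a mean of at least 5 RPKM. Equal replicate numbers of siBCL11A and siB/siM deviated together across genes (r = 0.33, 0.195 and 0.185), so these libraries may be paired, which the labels do not say. The main fit and its intervals did not use such pairing, and a replicate block was an alternative. No other pair of groups agreed at every number, although number 3 did between siMBNL1 and siBCL11A (r = 0.241) and between siB/siM and siMBNL1 (0.185).

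Depth was worked out from short RNAs, whose values step by whole reads (within 0.05 reads). In mega-reads (M) it came to 34.9 M, 32.7 M and 32.3 M for siB/siM and 20.03 M and 29.9 M for siNS, with 20 to 22 of 24 to 29 values whole in each. In siBCL11A and siMBNL1 libraries 6 to 11 values were too few to fix the size. Alternatives were other pseudocounts, filters, scalings, adjustments, options of limma, a replicate block and leaving out each library. Promoter windows came from RefSeq, and the 3 genes looked up matched, while the promoters of HSPA5 and AARS and the genes most like AARS are not reported here. The figures were drawn with matplotlib 3.10.9.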

Additional observations from a re-analysis of the deposited data

How the results depend on the processing

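Of 401 changes of the 5 genes recomputed under alternatives, 379 kept their direction and their side of the threshold, 18 fell short of it and 4 changed sign. Every call of ATF4, PPP1R15A, DDIT4 and HSPA5 against siNS held in every alternative, except DDIT4 in siMBNL1, and the calls of ATF4 and DDIT4 between siBCL11A and siMBNL1 held in all. AARS in siBCL11A was 0.17 with quantile normalization, 0.25 with a replicate block and 0.22 to 0.26 when libraries were left out. DDIT4 in siMBNL1 was between −0.39 and −0.25 when libraries were left out, and DDIT4 in siB/siM against siMBNL1 between −0.45 and −0.36. ATF4 in siB/siM against the mean of the single knockdowns was 0.15 with quantile normalization and 0.28 to 0.30 in leave-outs. HSPA5 changed sign between knockdowns where it had not passed, with quantile normalization to −0.093 for siB/siM against siBCL11A, −0.070 against siMBNL1 and −0.081 against the mean, and to −0.021 against siBCL11A without siB/siM library 2 (leave-outs −0.021 to 0.14). The cause was not tested.

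Of the 5 genes, the number called in siB/siM against siMBNL1 was 1 to 2 in leave-outs, and against the mean it was 0 with quantile normalization and 0 to 1 in leave-outs. Over all genes, siB/siM against siBCL11A had 92 calls, but 47 and 57 with pseudocounts of 0.1 and 0.5, 45 with median centring, 156 with quantile normalization, 17 with only the groups compared, 456 adjusted over listed genes, 165 with trend and robust options, 64 with a replicate block, 39 with the block and only these groups, and 8 to 77 in leave-outs. Against the mean, 56 calls became 35 and 36 (pseudocounts 0.1 and 0.5), 255 (quantile), 29 (only the groups compared), 354 (listed genes) and 8 to 53 in leave-outs. Against siMBNL1, 454 became 822 (quantile), 993 (listed genes) and 262 to 398 in leave-outs, and siBCL11A against siMBNL1 went to 1150 from 638 over listed genes. With a replicate block AARS alone lost its call among the 5 genes, the synthetases called lower became 0 of 1 in siBCL11A and 1 of 2 in siMBNL1, the eIF2 group called lower became 1 of 2 in siB/siM, and RRAGA in siBCL11A (adjusted p = 0.0505), CARS in siBCL11A (0.0643) and RRAGC in siB/siM (0.0554) were lost.

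Quantile normalization shifted the median of all genes by −0.13 in siB/siM against siNS, −0.14 against siMBNL1 and −0.10 against the mean. It moved the share of calls that were higher to 25.6% (87.0% as deposited) in siB/siM against siBCL11A, 10.2% (49.8%) against siMBNL1, 3.53% (48.2%) against the mean and 20.7% (37.1%) in siBCL11A against siMBNL1. With median centring the share was 64.4% against siBCL11A and 23.6% against the mean. Quantile normalization was applied although the groups list different numbers of genes. Of 540 list counts, 45 moved by over 1.5 times, and of 2049 values of other named genes 89 fell short of the threshold, 17 newly passed and 2 changed sign, both with quantile normalization (CALR in siMBNL1 to 0.051 and VIM in siB/siM to −0.0090). Levels of genes with no value in a block were not analysed here, and 2 siNS libraries limit every comparison with siNS.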
